A study of Homo sapiens with 6 samples.

Results

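UBD, GABBR1 and OR2I1P are 3 neighbouring genes of chromosome 6 whose exons occupy some of the same positions, and they were 3 of the 59608 genes in the count table. They were taken from the table by name. The locus was chosen by its values in this very contrast: OR2I1P had the second smallest unadjusted p-value of the table in the comparison of VEZF1-WT with VEZF1-2A, and UBD and GABBR1 the sixth and seventh, so the differences of the 3 genes between the groups are described below without a test. RNA of HepG2, an established human liver cancer cell line, was sequenced in 6 libraries. The cells of all 6 carried an sgRNA, delivered by lentivirus, to silence their own VEZF1, a zinc finger transcription factor. On that background VEZF1-WT was put back for 3 libraries and VEZF1-2A for the other 3. VEZF1-2A has alanine in place of a pair of serines that the authors name among several possible sites of the sugar O-GlcNAc. VEZF1-WT keeps these serines. Cells left unedited or without any VEZF1 put back were not analysed here. The labels do not say whether the 3 libraries of a group came from separate cultures, so every spread given may be technical.

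UBD encodes FAT10, a small protein built of a pair of ubiquitin-like domains. Like ubiquitin it is attached to other proteins, first activated by UBA6 and passed on by UBE2Z, and the tagged proteins are sent to the proteasome. Its gene is switched on by TNF and interferon gamma, and FAT10 is known for its high level in many hepatocellular carcinomas. GABBR1 encodes a subunit of the GABA-B receptor, which needs GABBR2 to reach the cell surface and is best known from neurons. OR2I1P is an olfactory receptor pseudogene of the large receptor cluster beside the MHC.

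The VEZF1-WT libraries held 47414775, 35272710 and 57199396 counts and the VEZF1-2A libraries 28756765, 39565464 and 33966492. VEZF1 itself stood at 59.3, 45.6 and 40.0 CPM with VEZF1-WT and at 46.2, 48.6 and 38.9 CPM in VEZF1-2A, where CPM is the count relative to the total of the library after TMM scaling. These levels overlapped, and a gene count does not tell the serine form from the alanine form. Liver genes were abundant throughout. ALB ranged from 2810 to 3668 CPM, APOB from 5560 to 6713 and HNF4A from 128.2 to 156.6. The libraries numbered 3 stood apart from the rest in AFP, the fetal albumin-like protein: they held 3640 CPM with VEZF1-WT and 3479 with VEZF1-2A, against 1761 to 2063 in the other 4 libraries. Both also had the lowest UBD level of their group.

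The genes overlap as follows, in GRCh38 positions from the table. UBD lies on the minus strand at chr6:29555515-29559732 with an exon of 58 bases at its start and an exon of 836 bases at its end (chr6:29555515-29556350). GABBR1 lies on the same strand at chr6:29555629-29633976 with 26 merged exons and 8468 exon bases. Its exon farthest downstream, chr6:29555629-29556350, has 722 bases, and all of them fall inside the long UBD exon. OR2I1P lies on the plus strand at chr6:29550407-29557721, and its second exon (chr6:29552808-29557721) runs across the whole long UBD exon in the opposite direction. All 3 genes therefore share 722 bases, UBD and OR2I1P share 114 more, and only the 58 bases of the first exon belong to UBD alone. Of the exon bases, 93.5% were shared for UBD, 15.6% for OR2I1P and 8.53% for GABBR1. No other gene of the table had an exon there.

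**Figure D1:**
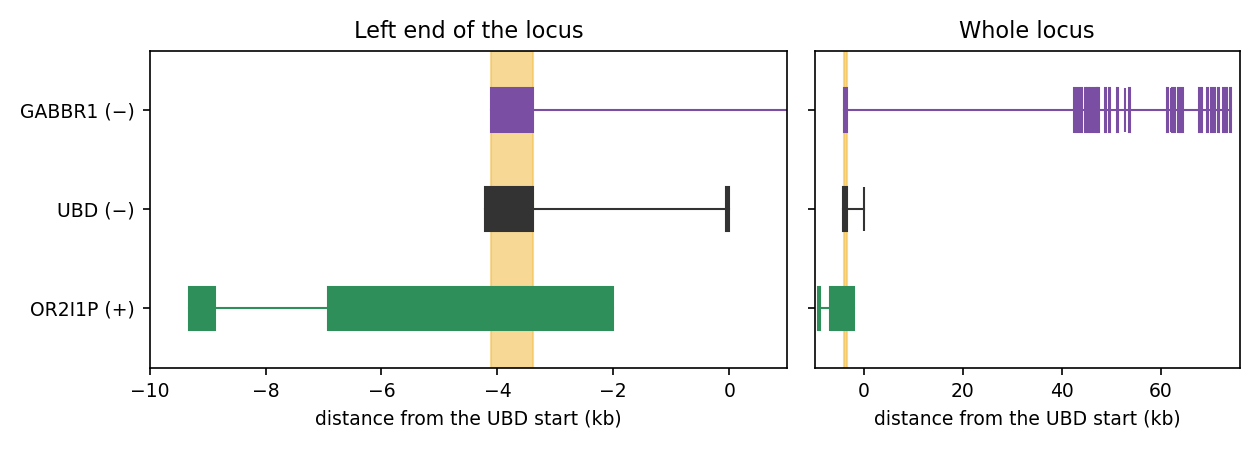
Exons (boxes) of GABBR1, UBD and OR2I1P against the distance from the UBD start in kb along the chromosome, with the strand in brackets. The left panel is the left end of the locus, the right panel the whole of it, and the band marks the 722 bases that all 3 genes share. The band covers most of UBD and 1 exon of GABBR1, and 45.9 kb lie between that exon and the next one of GABBR1.

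The same stretch is read differently in each gene. In GENCODE 29, 468 of the 722 shared bases code for protein in the UBD transcript, while none do in the GABBR1 or OR2I1P transcript there. Of 20 GABBR1 transcripts in that release, 1 (with 19 exons) has the shared exon, as a last exon that holds only untranslated sequence. The next exon of the gene lies 45877 bases away. The exon boundaries are shown because they are where a spliced read would tell the genes apart. Each line is the sequence on the minus strand, with the bases before the shared exon in lower case and its first 20 bases (chr6:29556331-29556350) in capitals. The lower-case bases of UBD are 27 coding bases of its first exon, starting with its start codon (chr6:29559675-29559701), those of GABBR1 end its preceding exon (chr6:29603541-29603570), and those of OR2I1P are simply the next bases of the genome (chr6:29556351-29556360), written as the complement of its own strand.
UBD: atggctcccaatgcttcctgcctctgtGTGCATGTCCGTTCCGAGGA
GABBR1: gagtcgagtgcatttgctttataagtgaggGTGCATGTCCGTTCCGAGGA
OR2I1P, complement: cacttcccagGTGCATGTCCGTTCCGAGGA
Past the boundary the letters are the same, so a read within the capitals and the bases after them fits all 3 genes. The table gives totals per gene and not the reads that cross a boundary.

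How the authors' counting treated such reads was read from the rest of the table. There were 1671 genes whose exon positions all lay inside the exons of another gene, some of them inside more than 1, which made 1729 pairs. Had shared reads been discarded, all of these genes would stand at 0. Instead, 1239 of them had counts. The contained gene had counts in 693 of 934 pairs (74.2%) on the same strand and in 590 of 795 pairs (74.2%) on opposite strands, and 566 of the 758 genes (74.7%) that lay only within genes of the opposite strand had counts. In each of the 1283 pairs with counts, the contained gene had at most the count of the gene around it in each of the 6 libraries. Among genes that overlapped only in part, the shorter gene had at most the count of the longer in 59.6% of same-strand pairs and 70.3% of opposite-strand pairs. In these files, therefore, a read on shared positions was counted for each gene it touched, whichever the strand, and 1 read of the shared exon could add to UBD, GABBR1 and OR2I1P at the same time.

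UBD had 1766, 1367 and 1835 counts with VEZF1-WT and 1566, 2907 and 1465 with VEZF1-2A. GABBR1 had 1772, 1375 and 1833 counts with VEZF1-WT and 1572, 2915 and 1469 with VEZF1-2A. The 2 genes were thus within 8 counts of each other in every library, although the UBD count varied 2.13-fold between libraries and GABBR1 has 7746 exon bases of its own. The difference, GABBR1 minus UBD, was 6, 8 and −2 counts with VEZF1-WT and 6, 8 and 4 with VEZF1-2A, or −0.109% to 0.585% of the UBD count. Had the 7746 own bases of GABBR1 been covered at the density of UBD, they would have held between 11844 and 25187 counts in a library.

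OR2I1P had 1956, 1509 and 2001 counts with VEZF1-WT and 1718, 3162 and 1632 with VEZF1-2A, more than UBD in every library. The excess over UBD was 190, 142 and 166 counts with VEZF1-WT and 152, 255 and 167 with VEZF1-2A. This is 8.06% to 10.2% of the OR2I1P count, and it is what subtraction leaves for the 4529 exon bases that OR2I1P alone holds. Spread over those bases it came to 31.4 to 56.3 counts per kb, 1.73% to 2.25% of the density on UBD in the same library. Some of those bases lie in the intron of UBD, and the others lie beyond the UBD end. Strand was not used in the counting, so the excess is not shown to be RNA of OR2I1P. The counts did not follow exon length, and the longest of the 3 genes, GABBR1, had the lowest density.

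**Figure D2:**
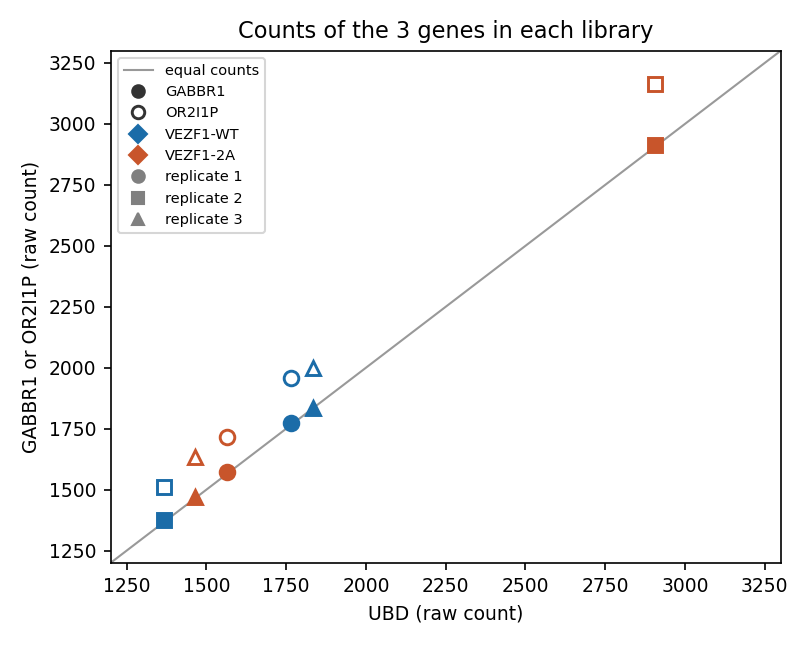
Raw count of GABBR1 (filled) and OR2I1P (open) against the raw count of UBD in each of the 6 libraries, with colour for the group, shape for the replicate and the line of equal counts. The 6 GABBR1 points lie on the line, within 8 counts of it, and the 6 OR2I1P points lie 142 to 255 counts above it.

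By counts per kb of exon, UBD was at 1529 to 3252 (median 1864), OR2I1P at 281 to 589 and GABBR1 at 162.4 to 344. The range of UBD did not overlap the others, and OR2I1P was above GABBR1 within each library although their ranges overlapped. UBD ranked 945th of the 38745 genes with a count by its mean level per kb, above 97.6% of them. This order of levels is the order of the shares of shared bases, which are counted for all 3 genes. Neither subtraction is an exact read number. A read wholly within the 172 UBD bases outside the shared exon of GABBR1 adds to UBD and not to GABBR1. The GABBR1 difference is therefore a lower bound for the reads on its own bases, and the same holds for OR2I1P with reads on the 58-base exon. Where along UBD its reads lay is not recorded in the table. If every GABBR1 count lay on its own 7746 bases, the density there would be 11.5% to 11.6% of that on UBD. That figure follows from the near-equal counts and the exon lengths alone, so nothing is read from it.

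The totals bear on which gene the shared reads came from as follows. The GABBR1 count exceeded that of UBD by at most 8 in any library, and the OR2I1P count by at most 255, while UBD held 1367 to 2907 counts on the fewest exon bases of the 3 genes, 93.5% of them shared. On these totals UBD is the most likely source of the shared reads, but the table does not show where along the exons they lay. A transcript of GABBR1 or OR2I1P read at the shared bases alone would give the same totals, and although that exon is the last one of its GABBR1 transcript, a preference of the libraries for transcript ends was not tested. The strand of the reads, which would separate UBD from OR2I1P directly, was not used in the counting. The GABBR1 levels and differences below cannot be told apart from those of UBD.

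In VEZF1-WT, UBD stood at 37.3, 38.4 and 32.6 CPM, and in VEZF1-2A at 53.7, 72.6 and 44.2 CPM. All VEZF1-WT libraries lay below all VEZF1-2A libraries, and the second VEZF1-2A library was the highest. The means were 36.1 ± 3.09 and 56.8 ± 14.5 CPM (SD, n = 3 each), and the log2 fold change of VEZF1-WT over VEZF1-2A was −0.66 with a standard error of 0.15. GABBR1 gave the same numbers again, with 36.2 ± 3.22 against 57.0 ± 14.5 CPM (SD, n = 3 each) and a log2 fold change of −0.66. OR2I1P stood at 41.3, 42.4 and 35.5 CPM with VEZF1-WT and at 58.9, 79.0 and 49.2 in VEZF1-2A, for a log2 fold change of −0.65. Since reads on the shared bases are counted for all 3 genes, the 3 differences are not independent of each other. The groups did not overlap for 7.36% of the 19111 genes tested, 3.86% with VEZF1-WT lower, and nothing is read from the members' place among them because this contrast chose them.

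**Figure D3:**
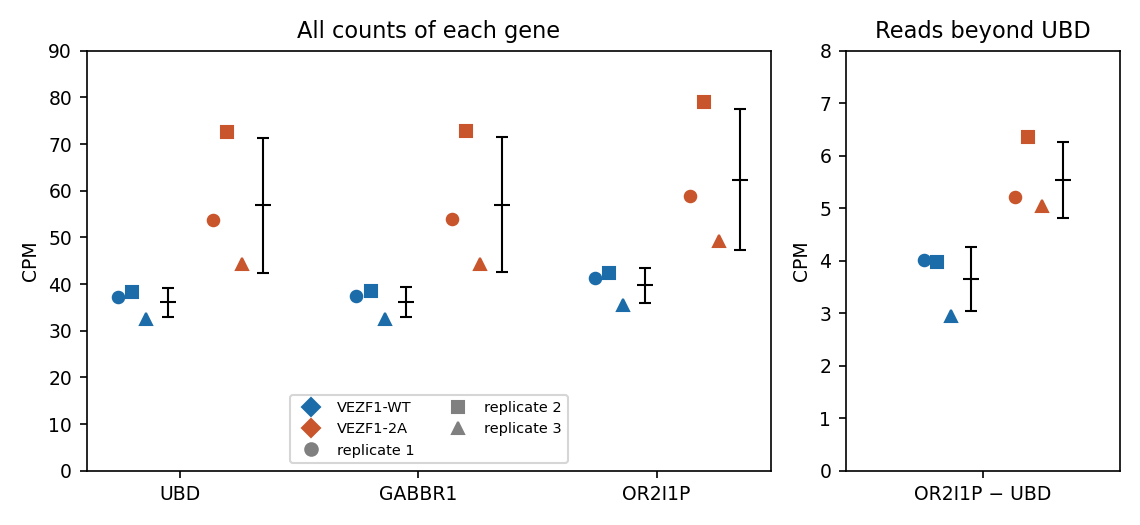
CPM of UBD, GABBR1 and OR2I1P (left) and of the OR2I1P counts beyond those of UBD (right, another scale) in each library, with the mean and SD of each group of 3 in black. The pattern of the 6 points repeats in all 3 genes, with VEZF1-WT below VEZF1-2A and the second VEZF1-2A library highest, and the remainder on the right keeps the order of the groups at a far lower level.

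The OR2I1P counts beyond those of UBD stood at 4.01, 3.98 and 2.94 CPM with VEZF1-WT and at 5.21, 6.36 and 5.03 in VEZF1-2A. They too were lower in all VEZF1-WT libraries, with 3.64 ± 0.608 against 5.54 ± 0.723 CPM (SD, n = 3 each) and a log2 ratio of the means of −0.60. Their share of the OR2I1P count was 9.14% ± 0.747 with VEZF1-WT and 9.05% ± 1.10 with VEZF1-2A (SD, n = 3 each), a difference within the spread. In CPM the excess thus differed between the groups in the same direction as UBD, while its share in single libraries ranged from 8.06% to 10.2%. With OR2I1P reduced to these counts and GABBR1 left out of the table, a step chosen after the values were seen, the fit gave a log2 fold change of −0.61 for OR2I1P and −0.66 for UBD.

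The size of the UBD difference moved with single libraries. Without the second VEZF1-2A library the log2 fold change was −0.44, without the third it was −0.81, and without the third VEZF1-WT library it was −0.59. With both libraries numbered 3 left out, also chosen after the values were seen, it was −0.75.

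The rest of the neighbourhood was nearly silent. Within 200 kb of the 3 genes lay 42 others, of which 19 were at 0 in all libraries and 33 had fewer than 10 counts in every one. The UBD pseudogene UBDP1 was at 0 throughout, so no reads were counted on that copy. The olfactory receptor OR2H2 and the pseudogene OR2H5P, both inside the span of GABBR1, were at 0 as well, and MOG, a myelin gene, had at most 2 counts. Higher counts were found for SUMO2P1 (50 to 89), a pseudogene just beyond the GABBR1 start, and at the MHC end for HLA-F (122 to 234) and HLA-G (121 to 251), which encode class I molecules. At that end HLA-F-AS1 had 57 to 104 counts, MICE 22 to 44 and HCG4P8 20 to 46. Of the 9 neighbours tested, 0 had an unadjusted p under 0.05 in the quasi-likelihood test of edgeR. HLA-F, for instance, had 4.20, 3.96 and 4.10 CPM with VEZF1-WT and 4.70, 5.85 and 3.68 with VEZF1-2A, with overlapping groups and a log2 fold change of −0.22 (SE 0.17).

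Genes of the same pathways were taken from 6 lists with 95 genes, 60 of them tested. By the quasi-likelihood test of edgeR, with p-values adjusted after Benjamini and Hochberg, 0 of the 19111 genes tested (0%) passed an adjusted p of 0.05, 408 (2.13%) had an unadjusted p under 0.05, and 249 (1.3%) had it with VEZF1-WT lower. DESeq2 called 3 genes after adjustment, and these were UBD, GABBR1 and OR2I1P. Nothing is read from these calls, since this contrast had chosen the 3 genes and reads on shared bases count for each of them. Among the 60 listed genes 0 passed the adjusted threshold in this edgeR fit or in DESeq2. In the edgeR fit 5 (8.33%) had an unadjusted p under 0.05, all lower in VEZF1-WT.

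All 5 were on the list of cytokine targets that are induced together with UBD (14 of 15 tested, median log2 fold change −0.07 against 0.00 for all genes tested). None of the 5 passed the adjusted threshold in that fit, though CCL20 did in edgeR with a replicate block or with no filter on low counts. BIRC3 and CCL20 were known from earlier results of these libraries when the list was made. NFKBIA, the inhibitor that holds NF-kB in the cytoplasm, stood at 58.2, 53.8 and 57.2 CPM with VEZF1-WT and at 67.0, 65.9 and 70.5 in VEZF1-2A (log2 fold change −0.27, SE 0.06). TNFAIP3, which encodes the NF-kB feedback inhibitor A20, stood at 22.1, 21.1 and 25.1 against 26.5, 31.0 and 30.1 CPM (−0.36, SE 0.09). BIRC3, an inhibitor of apoptosis downstream of the TNF receptor, stood at 1.73, 2.13 and 1.49 against 3.02, 3.54 and 2.65 CPM (−0.80, SE 0.19). In these 3 genes every VEZF1-WT library lay below every VEZF1-2A library, which held for 3.86% of all genes tested. PSMB10, an immunoproteasome subunit of the same list, was the reverse, at 4.98, 5.78 and 5.23 against 4.76, 4.94 and 4.46 CPM (log2 fold change 0.17, SE 0.12), with an unadjusted p above the threshold. The groups overlapped for the chemokine CCL20 (log2 fold change −0.55, SE 0.17) and for the adhesion molecule ICAM1 (−0.18, SE 0.07).

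The other tested members of that list had unadjusted p-values above the threshold. PSMB8 and PSMB9, subunits of the immunoproteasome, had log2 fold changes of −0.03 (SE 0.11) and −0.09 (SE 0.25), and the peptide transporter TAP1 had −0.06 (SE 0.07). GBP1, an interferon-induced GTPase, had −0.08 (SE 0.30), and the chemokine CXCL8 had 0.10 (SE 0.19). CXCL10 was at 0 in every library and was not tested.

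None of the receptors and transcription factors that induce UBD had an unadjusted p under 0.05 (12 of 13 tested, log2 fold changes from −0.13 to 0.06, median 0.00). RELA, the main activating NF-kB subunit, stood at 59.7, 66.4 and 62.9 CPM with VEZF1-WT against 61.3, 61.2 and 64.4 CPM with VEZF1-2A. The TNF receptor TNFRSF1A was between 17.0 and 19.2 CPM in all libraries, while TNFRSF1B had at most 4 counts.

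The enzymes and partners of FAT10 were all detected except AIPL1, which had at most 2 counts, and 0 of 9 tested had an unadjusted p under 0.05 (log2 fold changes from −0.03 to 0.10, median 0.03). UBA6 stood at 33.8, 36.0 and 33.4 CPM with VEZF1-WT and at 31.8, 34.1 and 31.2 in VEZF1-2A. UBE2Z was between 25.5 and 29.5 CPM, and NUB1, which speeds the breakdown of FAT10, was between 83.7 and 88.1 CPM. VCP, the unfolding ATPase, and SQSTM1, an autophagy receptor, were the most abundant of the list (283.4 to 320.5 and 180.4 to 230.5 CPM). Of the related modifiers, 0 of 18 tested had an unadjusted p under 0.05 (log2 fold changes from −0.15 to 0.09, median 0.00). Among them ISG15, the other modifier with a pair of ubiquitin-like domains, had a mean of 10.6 CPM with VEZF1-WT.

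The partner genes of GABBR1 differed widely in level. GABBR2, the partner subunit without which GABBR1 does not reach the surface, had 4 to 14 counts per library, or 0.12 to 0.34 CPM. Of 23 genes for GABA receptors, synthesis and transport, 7 were tested and 0 had an unadjusted p under 0.05. GNAI2 (139.9 to 169.5 CPM), GNAI3 (76.7 to 84.9 CPM) and GNAI1 (10.3 to 13.4 CPM) encode G proteins used by many receptors. ABAT (83.3 to 91.9 CPM) and ALDH5A1 (18.7 to 22.7 CPM) break GABA down in mitochondria. SLC6A12, a carrier of betaine and GABA, and GABRE, a GABA-A subunit, completed the 7 at 4.37 to 7.53 and 4.58 to 6.72 CPM. GAD2, which makes GABA, and KCTD16, a GABA-B auxiliary subunit, were at 0 throughout.

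Among 15 olfactory receptors of the chromosome 6 cluster 0 were abundant enough to be tested, 10 were at 0 in all libraries, and the highest, OR2B6, had 5 counts over all 6. OR2I1P, at 1509 counts or more in each library, was the exception, and 8.06% to 10.2% of its counts went beyond those of UBD.

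Markers of other cells were low. The 8 immune markers summed to between 3.17 and 5.28 CPM, most of it from CCR7 (mean 3.35 CPM), with CD86 at 0 and PTPRC at 0.12 CPM or less. The 5 neuron markers summed to between 0.34 and 1.22 CPM, led by GAP43 (mean 0.52 CPM), with STMN2 at 0. Their part in the UBD difference was not tested.

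The genes whose level was most like that of UBD across the 6 libraries, by Pearson correlation of log2 of CPM plus 0.1 and leaving out the overlapping genes, were DNAJC22 (r = 0.988), WDR38 (0.988), SLC4A1APP1 (0.986), PRF1 (0.985) and TRIM66 (0.983). All 6 points share libraries and depth with UBD, and these are the highest of the values over 19111 genes, so they are given as a description. PRF1, which encodes perforin, was closest to UBD in size, at 7.23, 7.33 and 6.32 CPM with VEZF1-WT and 9.54, 11.7 and 7.42 with VEZF1-2A (log2 fold change −0.47).

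The region before the UBD start is shown because UBD is a known target of NF-kB and the NF-kB targets above were named beside it. The 250 bases before the start of UBD in RefSeq (GRCh38.p14) were searched, which begin at the base next to the first UBD base of the table. The line gives 30 of them (chr6:29559756-29559785, minus strand). Capitals mark a match to the NF-kB consensus, at 53 to 44 bases before the start, and the letters TATAA, at 28 to 24 bases before it. GENCODE 29 places the start of UBD farther upstream, so that 193 of the 250 bases, both matches included, lie within its first exon there.
UBD, before the start: GGGGATTTCCaactcaactctggtaTATAA
Of 35116 promoters of the same length, 9.96% held the NF-kB consensus on either strand and 13.6% held TATAA on the gene's strand. The UBD promoter had no GGGGGG on either strand, the kind of G run that VEZF1 is known to bind, which was found in 17.6% of promoters. TTCNNNGAA, the letters of a gamma interferon activation site, was in neither the UBD nor the GABBR1 promoter and in 6.57% of all promoters. The GABBR1 promoter in the same table had 4 GGGGGG matches, a pair of them overlapping, and no NF-kB consensus or TATAA. The motifs do not overlap one another in UBD. A match is a description of the letters and no evidence of binding.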

How the data were processed

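The authors deposited 1 table of raw read counts, with a line per gene and a column per library, and gene positions on GRCh38 per the labels. RNA was isolated with a column kit and made into mRNA libraries. The aligner, counting program, annotation and strand setting are not given in the sources used here. Of 59613 lines, 5 (ANK2, broken over several lines) were left out. Between 81.0% and 83.0% of the counts from 1 to 10 were even, so reads may have been counted in pairs. Merged exons matched GENCODE 29 for 69.3% of 54985 shared symbols. OR2I1P matched, GABBR1 had 8470 exon bases there and UBD 1087.

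Exon intervals were split into shared and own positions in Python 3.11.15, and counts were subtracted within each library. Counts were fitted in R 4.3.3 with edgeR 4.0.16 (filterByExpr with minimum count 10 and minimum total 15, TMM, glmQLFit and glmQLFTest, group as the only term, two-sided, Benjamini-Hochberg over 19111 genes). The standard errors given, that of UBD included, were worked out from this test. Each is the absolute log2 fold change over the square root of the F statistic. DESeq2 1.42.0 was an alternative. In simulated counts of this comparison, with 200 of 19111 genes changed, edgeR called 77.66% of the 94 that passed the filter with a log2 change of 1, and 99.05% of the 105 with a log2 change of 2. The simulated spread followed the trend of dispersion fitted by edgeR, without scatter of single genes around it or effects of replicate number. These shares are therefore not the power in the real libraries. Figures were drawn with matplotlib 3.10.9. The members and the gene lists were chosen with earlier results of these data known. Genes named are the members, genes sharing exon positions with them, genes within 200 kb, up to 6 genes per list (the most abundant and those with an unadjusted p under 0.05) and the 5 genes most correlated with UBD; a few low or absent genes, and others of each list, were named after their values were seen.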

Additional observations from a re-analysis of the deposited data

How the results depend on the processing

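The log2 fold changes of UBD, GABBR1 and OR2I1P kept their sign under all alternatives, from −0.82 to −0.44 with 1 library left out and from −0.75 to −0.61 otherwise. Counts of called genes were less stable. Unadjusted p-values under 0.05 numbered 408 and became 896 with no filter on low counts, 219 in DESeq2, 833 without both libraries numbered 3 and 292 to 973 with 1 library left out, the last without VEZF1-2A replicate 3. The adjusted threshold was passed by 0 genes with edgeR, by 16 with no filter (1 of them listed, CCL20), by 3 in DESeq2, by 4 without both libraries numbered 3 and by 0 with any 1 library left out. Under each of these settings that called genes, the calls included UBD, GABBR1 and OR2I1P. Nothing is read from this, here or with the replicate block below, since this contrast chose the 3 genes. Reads on their shared bases also count for each of them, so the calls are not independent. The cause of these shifts was not tested. Listed genes with an unadjusted p under 0.05 numbered 4 to 7.

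The replicate numbers were not taken to pair the samples, since the correlations of deviations within a number were 0.082, 0.151 and 0.382, and the second VEZF1-WT library was closer to the first VEZF1-2A library (0.181) than to its own number. The libraries numbered 3 were alike across the groups, however. Their correlation was 0.382 with each other and from −0.294 to −0.108 with the other numbers of the opposite group. The main fit has no term for this. With the replicate block, 825 genes had an unadjusted p under 0.05 and 6 passed the adjusted threshold (1 of them listed, CCL20, and 3 of them UBD, GABBR1 and OR2I1P), and the UBD log2 fold change was −0.63. The share of pairs in which the contained gene had at most the count of the gene around it was 100% under a minimum of 10 counts or of 200 exon bases. The log2 ratio of the OR2I1P counts beyond UBD ranged from −0.68 to −0.47 with 1 library left out, and the median GABBR1 difference remained 6 counts. Scaling moved the median of all genes by less than 0.1.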

Other observations

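UBD and GABBR1 were not the only genes with near-identical counts. Of the 19111 genes tested, 10575 (55.3%) shared exon bases with another gene of the table, and 30 of 6743 overlapping pairs with both genes tested had counts within 1% of each other in every library. In GABBR1 and UBD the largest gap was 0.582%. Some of these pairs are readthrough genes named after both parts, such as NEDD8 with NEDD8-MDP1, HSPE1 with HSPE1-MOB4 and ANKHD1 with ANKHD1-EIF4EBP3. In 4 pairs the genes lay on opposite strands, among them MIF with MIF-AS1 and MGAT2 with AL139099.1. Like the 3 genes above, each such pair enters a list of called genes as separate entries with nearly the same counts.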
